A study of Mus musculus with 4 samples.

Results

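Ptprz1 encodes a receptor-type protein tyrosine phosphatase of the cell surface, and the genes described here are Ptprz1 and 7 genes tied to it or to pleiotrophin signalling. They are its relative Ptprg, the ligands Ptn (pleiotrophin) and Mdk (midkine), the receptor kinase Alk, the co-receptor Sdc3, the adhesion protein Cntn1 and the pleiotrophin- and midkine-binding protein Ncl. The members were chosen by gene symbol, with the brightest probe set of a gene, by its mean intensity over the 4 arrays, to stand for it. Each of the 8 genes had 1 probe set, so no measured value decided between probe sets. The 8 genes are set against 19938 genes with a probe set of their own. The set was put together with earlier results of these data known, so the place of Ptprz1 among all genes is a description and no independent evidence.

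The 4 arrays measured total RNA of embryonic mouse skin at E16.5 (E, embryonic day), with RNA of 2 mice on each array. Ovol2 BT embryos (2 arrays, labelled FVB/N) carried the transgenes TRE-Ovol2-Flag and K5-tTA, in which a transactivator under the keratin 5 promoter switches on the transcription factor Ovol2 in basal keratinocytes. Control embryos (2 arrays, labelled CB6F1) were wild type or carried TRE-Ovol2-Flag alone, and no array with K5-tTA alone was analysed here. Strain and transgene follow the same split by the labels, so their parts in any difference cannot be told apart. The labels call the replicates biological, and also state that littermates shared cages.

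Pleiotrophin and midkine are small heparin-binding growth factors that bind chondroitin sulfate chains on the Ptprz1 ectodomain. Pleiotrophin binding is known to bring receptors together and to lower their phosphatase activity, which leaves substrates such as beta-catenin and the kinase Fyn more phosphorylated. Ptprz1 is best known from glia and neural progenitors, and the same ligands also act through Alk, syndecans, integrins and cell-surface nucleolin.

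The labels were first checked on Ovol2 itself, which had an intensity of 7799 and 7949 on the Ovol2 BT arrays, against 176 and 297 on the control arrays. Ovol2 BT replicate 2 was the outlying array. On it, 894 tested genes lay over 2-fold below the mean of the other 3 arrays, against 30 to 43 on each of the others, and Pearson's r over genes was 0.930 between the Ovol2 BT arrays and 0.983 between the control arrays. All arrays are labelled female, yet the Y-linked gene Eif2s3y had intensities of 1339 on Ovol2 BT replicate 1 and 10.4 on Ovol2 BT replicate 2, against 1101 on control replicate 1 and 55.9 on control replicate 2. The replicate 1 arrays of both groups thus go against that label. Summed intensities of 7 skeletal muscle markers were 22857 and 45967 on the Ovol2 BT arrays, against 41097 and 23990 on the control arrays.

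Ptprz1 was the member with the lowest difference, and its signal was low on both Ovol2 BT arrays. Its intensity was 171 and 149 in Ovol2 BT skin, against 714 and 601 in control skin. The groups did not overlap, and the Ovol2 BT arrays lay close to each other. The mean control intensity was 4.12 times the mean Ovol2 BT intensity. On the log2(intensity + 16) scale used for all tests, where the offset of 16 shrinks the differences of dim genes, the level was 7.55 and 7.36 in Ovol2 BT skin, against 9.51 and 9.27 in control skin. The gap between the highest Ovol2 BT and the lowest control array was 1.72, against 0.18 between the Ovol2 BT arrays and 0.24 between the control arrays. The Ovol2 BT levels stood just above 7.32, the 25th percentile of all genes, below which genes were left out as dim.

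In limma's fit over 14953 genes the difference of Ptprz1 was -1.94 (Ovol2 BT minus control; SE 0.18, 95% interval -2.40 to -1.48), and it did not pass the threshold of 0.05 after Benjamini-Hochberg adjustment (adjusted p = 0.120; unadjusted p = 8.01e-05). It was the fourth lowest difference of all, with 3 genes (0.0201%) below it: Serpinb10 (-2.23), Akr1d1 (-2.17) and Fetub (-2.09). By p it ranked 10 among the genes tested. The difference was -1.97 between the arrays of replicate number 1, which had Y-linked signal, and -1.91 between those of number 2. It was -1.85 without Ovol2 BT replicate 2, the outlying array. With either Ovol2 BT array left out Ptprz1 passed the threshold, at an adjusted p of 0.00314 (without Ovol2 BT replicate 2) and 0.000272 (without Ovol2 BT replicate 1). Those fits rest on a lone Ovol2 BT array, assumed to vary like the controls, and called 107 and 2455 genes.

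**Figure D1:**
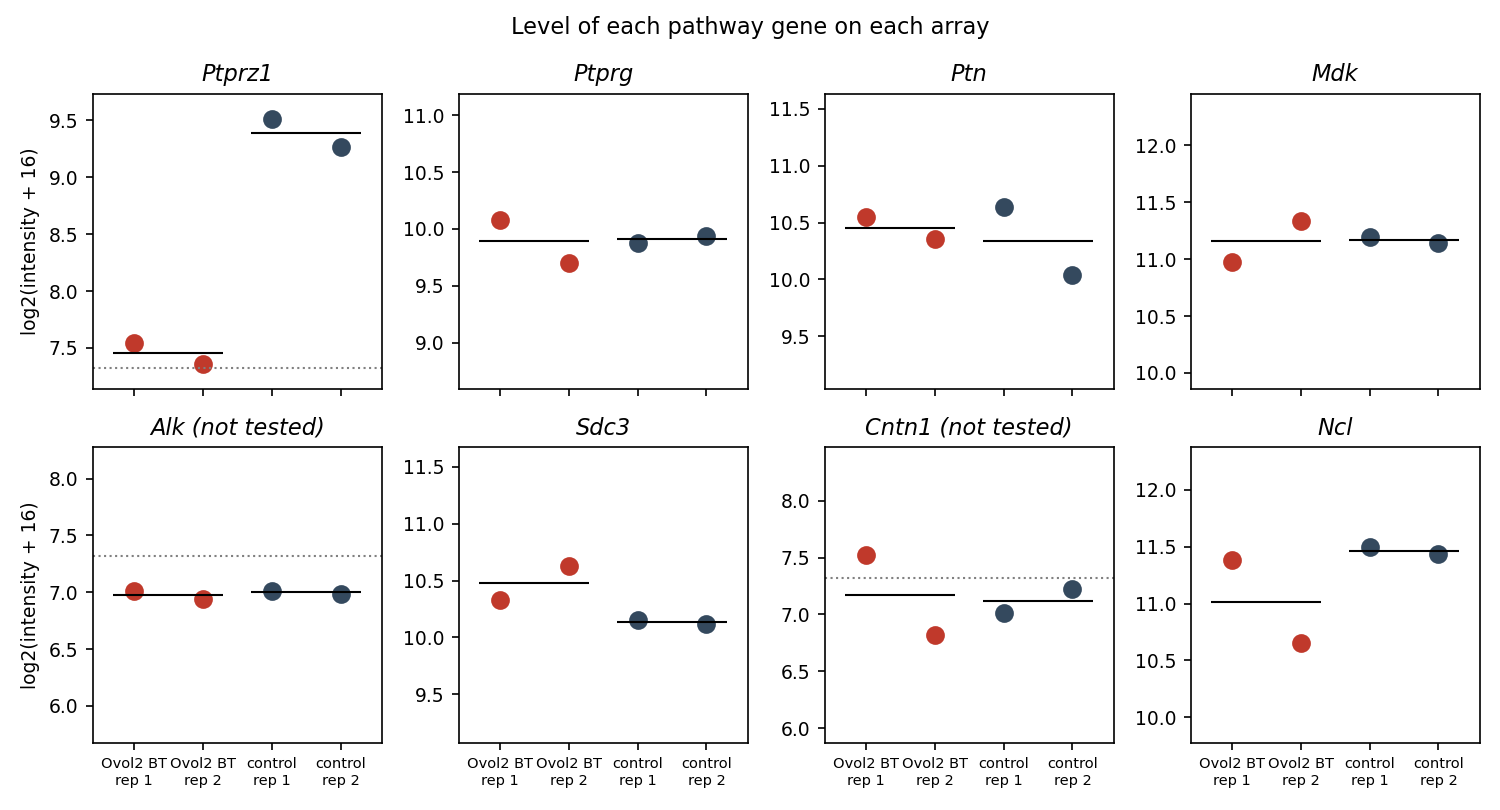
Level of each pathway gene on each array, as log2(intensity + 16), with Ovol2 BT arrays in red left of control arrays in dark blue and group means as lines. The dotted line marks the level of 7.32 under which genes were not tested, and every panel spans the same range of log2 units. Ptprz1 is the gene whose groups lie far apart, at 7.55 and 7.36 in Ovol2 BT skin against 9.51 and 9.27 in control skin.

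Among the members, 0 of 6 tested passed the threshold in limma, against 0.0268% of all genes (4 of 14953), and 1, Ptprz1, had an unadjusted p under 0.05, against 4.22% of all genes. The groups did not overlap for 3 of the 6, against 34.2% of all genes. Ptprz1 and Ncl were lower on both Ovol2 BT arrays, a pattern of 14.1% of all genes, and Sdc3 was higher on both, a pattern of 20.1%. These counts, over 6 genes of which Ptprz1 was known to differ, are given as a description. The median difference of the 6 was -0.01, and that of all genes tested was 0.03.

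Ptprg, the closest relative of Ptprz1 among the receptor phosphatases and a partner of contactins, did not share its pattern. Its intensity was 1067 and 816 in Ovol2 BT skin, against 926 and 965 in control skin, so the control arrays lay between the Ovol2 BT arrays. The difference was -0.02 (SE 0.21, 95% interval -0.55 to 0.52, limma adjusted p = 0.989). A fall of the size of that of Ptprz1 lies outside this interval.

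Both ligands were measured well above the level of the filter in each group. Ptn had an intensity of 1485 and 1291 in Ovol2 BT skin, against 1575 and 1033 in control skin. The 2 control arrays lay on either side of the Ovol2 BT arrays, and they differed from each other by 0.60 on the log2 scale. The difference between the groups was 0.12 (SE 0.26, 95% interval -0.52 to 0.76, limma adjusted p = 0.945).

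Mdk, the only close relative of pleiotrophin, had an intensity of 1998 and 2574 in Ovol2 BT skin, against 2323 and 2238 in control skin. The Ovol2 BT arrays lay on either side of the controls. The difference was -0.01 (SE 0.18, 95% interval -0.46 to 0.45, limma adjusted p = 0.994), so a change of 2-fold (1 on the log2 scale) lies outside the interval for either ligand.

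The receptors and co-receptors were read at different depth above background. Alk, a receptor tyrosine kinase of the nervous system, had an intensity of 113 and 107 in Ovol2 BT skin, against 113 and 111 in control skin. These are dim values under the filter level of 144, so Alk was not tested, and its difference of -0.03 says little about its transcript. Cntn1, a contactin of axons and glia that binds the Ptprz1 ectodomain, also had a mean under the filter level and was not tested. It read 168 and 97.0 in Ovol2 BT skin, against 113 and 133 in control skin, and the groups overlapped.

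Sdc3, a heparan sulfate syndecan through which pleiotrophin guides neurites, read 1268 and 1564 in Ovol2 BT skin, against 1121 and 1099 in control skin. Both Ovol2 BT arrays were above both controls, but they differed from each other by 0.30 on the log2 scale. The difference of 0.34 did not pass (SE 0.19, 95% interval -0.15 to 0.83, limma adjusted p = 0.907).

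Ncl (nucleolin) is an abundant nucleolar protein of ribosome production that also binds midkine and pleiotrophin at the cell surface. It read 2648 and 1596 in Ovol2 BT skin, against 2872 and 2746 in control skin. The lower mean came mainly from Ovol2 BT replicate 2, the outlying array. The difference was -0.45 (SE 0.26, 95% interval -1.10 to 0.21, limma adjusted p = 0.907). It was -0.08 without Ovol2 BT replicate 2 and -0.81 without Ovol2 BT replicate 1, where Ncl was among the 2455 genes called (adjusted p = 0.00368).

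**Figure D2:**
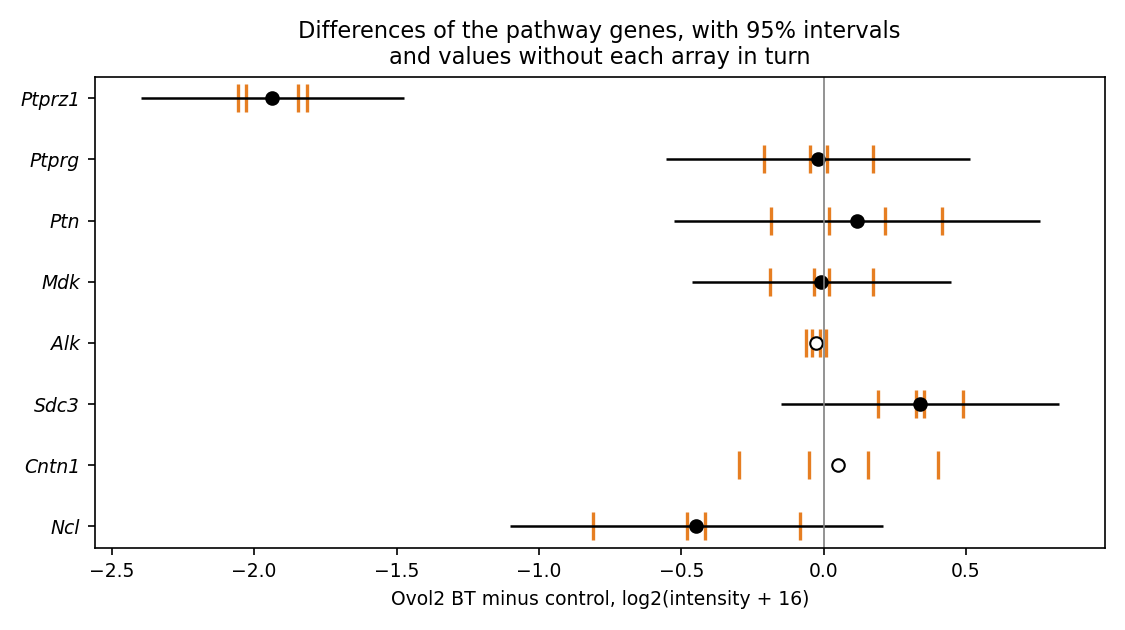
Difference of each pathway gene, Ovol2 BT minus control, on the log2(intensity + 16) scale. Filled points with lines are limma differences with 95% intervals, open points are the 2 genes that were not tested, and orange ticks are the values with each of the 4 arrays left out in turn. The 4 ticks of Ptprz1 lie between -2.06 and -1.82, while those of Ncl spread from -0.81 to -0.08.

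The genes whose profile over the 4 arrays was most like that of Ptprz1 were Akr1d1, Cldn8, Wnt16, Cracdl and Krt15. Likeness was the Euclidean distance between log2 levels after subtraction of each gene's own mean, over 4 arrays, and the distances were 0.33, 0.48, 0.51, 0.61 and 0.62 in that order. Akr1d1, a steroid reductase, read 68.7 and 67.7 in Ovol2 BT skin, against 358 and 369 in control skin. It was the 1 gene of the 5 that passed (difference -2.17, SE 0.13, limma adjusted p = 0.0256). Cldn8, a tight junction claudin, differed by -1.67 (adjusted p = 0.273), and Cracdl by -1.54 (adjusted p = 0.247). Krt15, a keratin of basal cells, differed by -1.41 (adjusted p = 0.102). Akr1d1 and Cldn8 (98.2 and 62.1 in Ovol2 BT skin) read under the filter level of 144 on both Ovol2 BT arrays and were tested through their control signal. The size of their differences, and their distances to Ptprz1, therefore rest on dim values. Cracdl read 147 and 192 in Ovol2 BT skin, just above that level on Ovol2 BT replicate 1. With 4 arrays the likeness amounts to a similar step between the groups and a small spread within them.

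**Figure D3:**
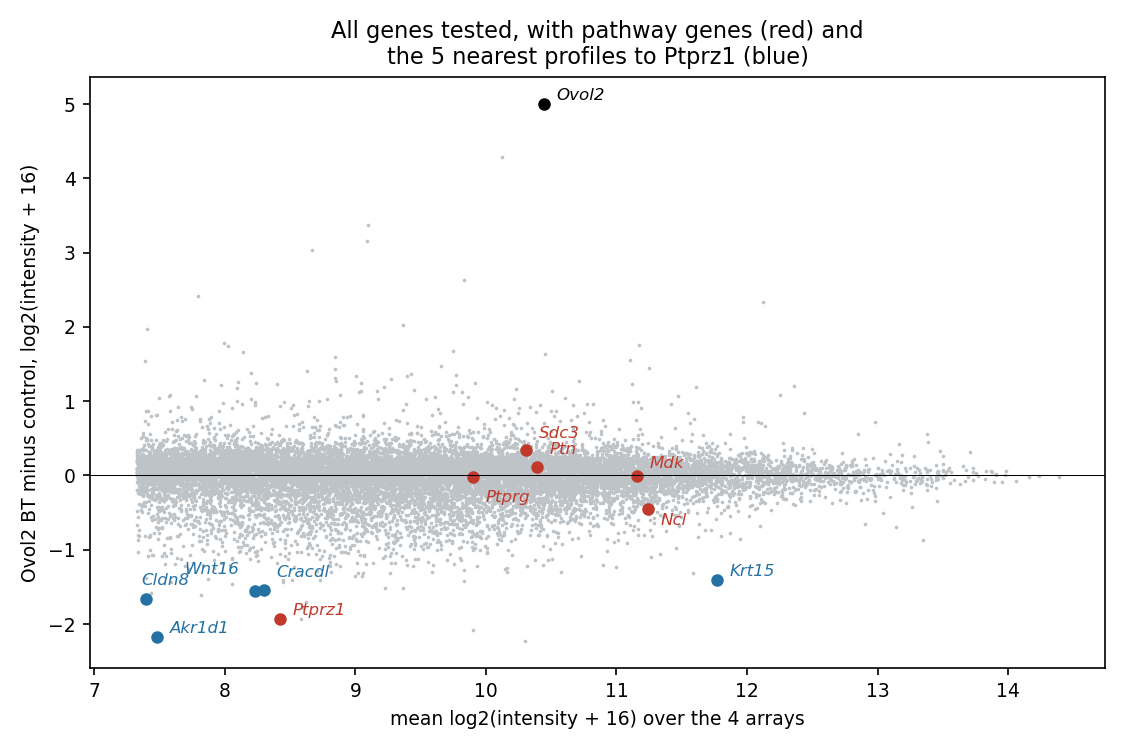
Difference of each of the 14953 genes tested, Ovol2 BT minus control, against its mean log2(intensity + 16) over the 4 arrays. Grey points are all genes, red points the 6 tested pathway genes, blue points the 5 genes with the nearest profile to Ptprz1, and the black point Ovol2. Ptprz1 lies at -1.94, apart from the other pathway genes, which lie between -0.45 and 0.34.

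One of these 5 genes, Wnt16, is a neighbour of Ptprz1 on the chromosome. In RefSeq's order of genes (GRCm38.p6) Wnt16, Fam3c and Ptprz1 follow one another on chromosome 6 among the protein-coding genes with a probe set. Wnt16, a secreted Wnt ligand, read 170 and 148 in Ovol2 BT skin, against 459 and 540 in control skin. Both Ovol2 BT arrays were far below both controls, with a difference of -1.55 (SE 0.18, limma adjusted p = 0.219). Like those of Ptprz1, its Ovol2 BT values stood just above the filter level of 144, so the size of the difference rests on dim values.

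Fam3c, which encodes a secreted cytokine-like protein and lies between Wnt16 and Ptprz1, read 1082 and 852 in Ovol2 BT skin, against 1054 and 879 in control skin. Its difference was 0.00 (-0.0038, 95% interval -0.55 to 0.55), so the low signal did not extend over the gene in between. On the other side, Aass, an enzyme of lysine breakdown, read 296 and 301 in Ovol2 BT skin, against 191 and 255 in control skin, a difference of 0.41 (adjusted p = 0.907). The transcription factor gene Fezf1 differed by 0.17 and Cadps2 by -0.11. Beyond Wnt16, Cped1 (-0.57), Ing3 (-0.25) and Tspan12 (-0.35) did not pass either. For Cped1 the difference came from Ovol2 BT replicate 2 (1802 and 844 in Ovol2 BT skin, against 1733 and 1948 in control skin). Akr1d1 is on chromosome 6 too. So 2 of the 5 nearest profiles, Akr1d1 and Wnt16, share the chromosome of Ptprz1, which holds 4.95% of the genes tested. Ptn, also on chromosome 6, is not among the 5 and differed by 0.12. The strain labels differ between the groups for every gene, although the protocol speaks of littermates. Sequence differences between strains under a probe can change its intensity without a change of transcript, and their part in the signals of Ptprz1, Wnt16 and Akr1d1 was not tested. The neighbours were looked up after these values were known. The count of 2 of 5 is a description too, since the 5 genes were picked by their values and Akr1d1 was dim in Ovol2 BT skin.

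**Figure D4:**
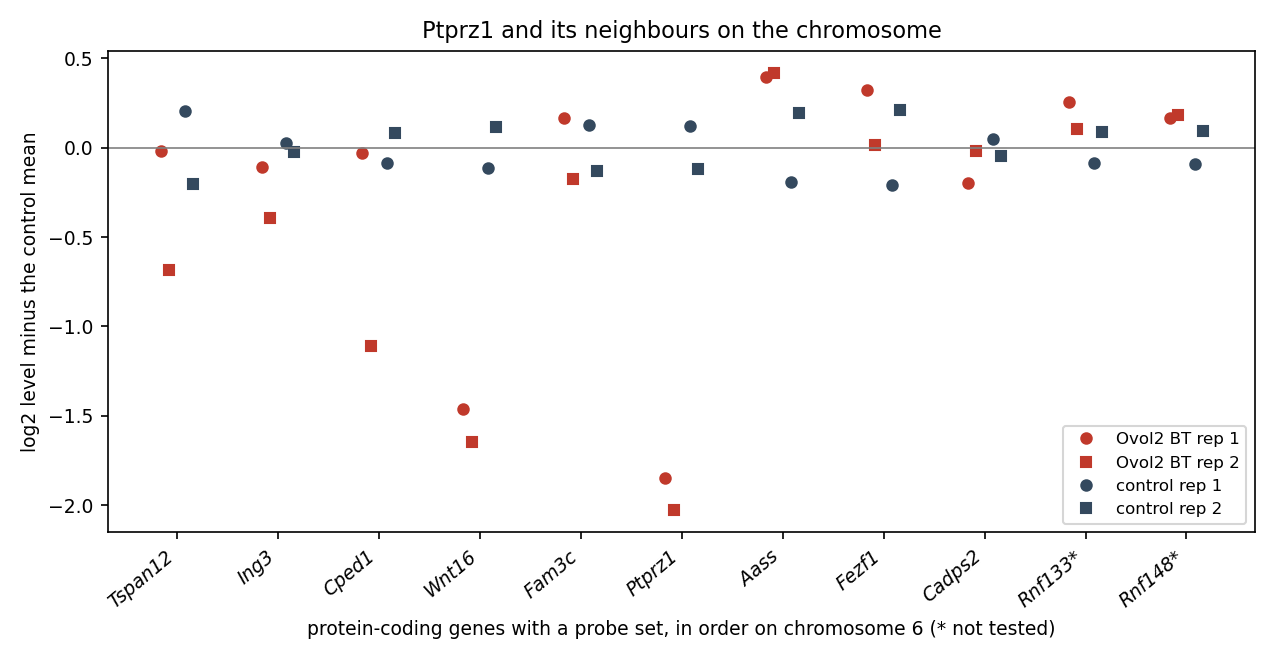
Log2 level of Ptprz1 and of 5 neighbouring protein-coding genes on either side, each minus its control mean, in their order on chromosome 6. Red points are Ovol2 BT arrays and dark blue points control arrays, circles replicate 1 and squares replicate 2, and an asterisk marks genes too dim to be tested. Wnt16 and Ptprz1 are low on both Ovol2 BT arrays, Fam3c between them is not, and Cped1 is low on Ovol2 BT replicate 2 alone.

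The 250 bases before the start sites of these 3 neighbours are shown because 2 of the genes were low in Ovol2 BT skin and the one between them was not. They come from RefSeq (GRCm38.p6) and run 5′ to 3′ on each gene's own strand: Wnt16 at chr6:22287977-22288226 on the plus strand, Fam3c at chr6:22356082-22356331 on the minus strand and Ptprz1 at chr6:22875252-22875501 on the plus strand. Capitals mark matches on either strand to CNGTTA, a loose form of CCGTTA, the core that Ovo-family proteins are known to bind and that CNGTTA includes.
Wnt16: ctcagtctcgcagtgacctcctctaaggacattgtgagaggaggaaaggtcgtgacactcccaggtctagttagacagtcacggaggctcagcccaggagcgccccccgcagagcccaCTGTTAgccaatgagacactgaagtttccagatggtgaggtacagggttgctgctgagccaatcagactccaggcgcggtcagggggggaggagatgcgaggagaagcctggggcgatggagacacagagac
Fam3c: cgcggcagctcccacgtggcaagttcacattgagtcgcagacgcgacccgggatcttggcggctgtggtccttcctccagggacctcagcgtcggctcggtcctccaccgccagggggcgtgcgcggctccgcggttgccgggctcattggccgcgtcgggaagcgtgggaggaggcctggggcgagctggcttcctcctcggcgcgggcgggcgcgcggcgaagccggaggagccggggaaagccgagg
Ptprz1: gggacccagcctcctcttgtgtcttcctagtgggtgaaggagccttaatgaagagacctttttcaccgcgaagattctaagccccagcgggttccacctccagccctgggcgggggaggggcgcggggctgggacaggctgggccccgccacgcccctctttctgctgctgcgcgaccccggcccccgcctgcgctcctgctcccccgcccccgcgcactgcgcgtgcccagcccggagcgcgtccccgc

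Wnt16 had 1 match to CNGTTA, on its own strand with the first base at position -132 from the start site, and the windows of Ptprz1 and Fam3c had none. CNGTTA was found in 19.8% and CCGTTA in 2.18% of 32851 windows of this length. No window of a member held CCGTTA, in 10 windows of 7 members, and 1 held CNGTTA, that of the first listed start of Cntn1. The letters in a window do not show whether a factor binds there, and sites outside these windows were not searched. The Ptprz1 window is rich in G and C (71.6%, against a median of 52.4% over all windows) and holds 22 CG dinucleotides, as is common at broad promoters.

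The wider pathway was read from lists of genes, and none of their members passed the threshold in limma. Of 14 other receptors of pleiotrophin or midkine, all tested, 0 passed, 1 had an unadjusted p under 0.05, and the median difference was -0.07, against 0.03 over all genes. That gene was Cspg5, a chondroitin sulfate proteoglycan of neural cells, which read 337 and 397 in Ovol2 BT skin, against 247 and 267 in control skin (0.48, SE 0.17, adjusted p = 0.907). Itga4, an integrin subunit of migrating cells, read 794 and 404 in Ovol2 BT skin, against 800 and 974 in control skin, and the low value was that of Ovol2 BT replicate 2.

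Other ligands of Ptprz1 or Alk showed small differences. Of 8 listed, 6 were tested, 0 passed and 0 had an unadjusted p under 0.05, with a median of -0.09. The largest were Il34, a cytokine that acts on macrophages and Langerhans cells (-0.23, SE 0.21), and L1cam, a neural adhesion molecule (0.19, SE 0.19). Tnc, the matrix protein tenascin-C, differed by -0.08.

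Contactins and their partners were mostly dim. Of 7 genes 3 were tested and 0 passed, and 1, Cntnap1, had an unadjusted p under 0.05. Cntnap1, which pairs with Cntn1 beside the nodes of myelinated axons, read 168 and 242 in Ovol2 BT skin, against 322 and 353 in control skin (-0.70, SE 0.21, limma adjusted p = 0.907). Both Ovol2 BT arrays lay below both controls. Cntn4, a binding partner of Ptprg, read 477 and 225 in Ovol2 BT skin, against 396 and 482 in control skin, and differed by -0.39 with overlapping groups.

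Substrates and scaffolds of the phosphatase differed little in transcript level. Of 11 genes tested 0 passed and 1 had an unadjusted p under 0.05, with a median of 0.07. Ctnnb1, which encodes beta-catenin, read 6880 and 6526 in Ovol2 BT skin, against 7863 and 7798 in control skin, a difference of -0.22 (SE 0.08, limma adjusted p = 0.907). Pxn, the focal adhesion protein paxillin, differed by 0.29 (SE 0.17), and Fyn by 0.02 (SE 0.14). Arrays read transcripts only, and phosphorylation of these substrates was not measured.

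The receptor-type phosphatases beside Ptprz1 and Ptprg did not share the low signal of Ptprz1. Of 19 listed, 18 were read and 14 tested; 0 passed, 0 had an unadjusted p under 0.05, and the differences ran from -0.35 to 0.18 with a median of -0.00 (-0.0019). The extremes on the low side were Ptprc, the leukocyte phosphatase CD45 (-0.35, SE 0.37), and Ptprd, a synaptic organiser (-0.23, SE 0.31). Both were below the controls on Ovol2 BT replicate 2 and above them on Ovol2 BT replicate 1, at 359 and 159 in Ovol2 BT skin, against 306 and 313 in control skin, for Ptprc.

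Enzymes that build the chondroitin sulfate chains that pleiotrophin binds, and further heparan sulfate carriers, complete the pathway. Of 20 chondroitin sulfate genes 19 were tested, 0 passed, and 13 had a difference above and 6 below 0 (median 0.07), against 8140 above and 6813 below 0 over all genes tested. Csgalnact1, which starts and extends the chains, was the 1 gene with an unadjusted p under 0.05, at 284 and 159 in Ovol2 BT skin, against 377 and 382 in control skin (-0.78, SE 0.28, limma adjusted p = 0.907). Its relative Csgalnact2 (-0.65, SE 0.47) was low on Ovol2 BT replicate 2 alone, at 1124 and 402 in Ovol2 BT skin, against 1075 and 1055 in control skin. Of 6 other syndecans and glypicans 0 passed and 0 had an unadjusted p under 0.05, with differences from -0.12 (Sdc2) to 0.06 (Gpc5).

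**Figure D5:**
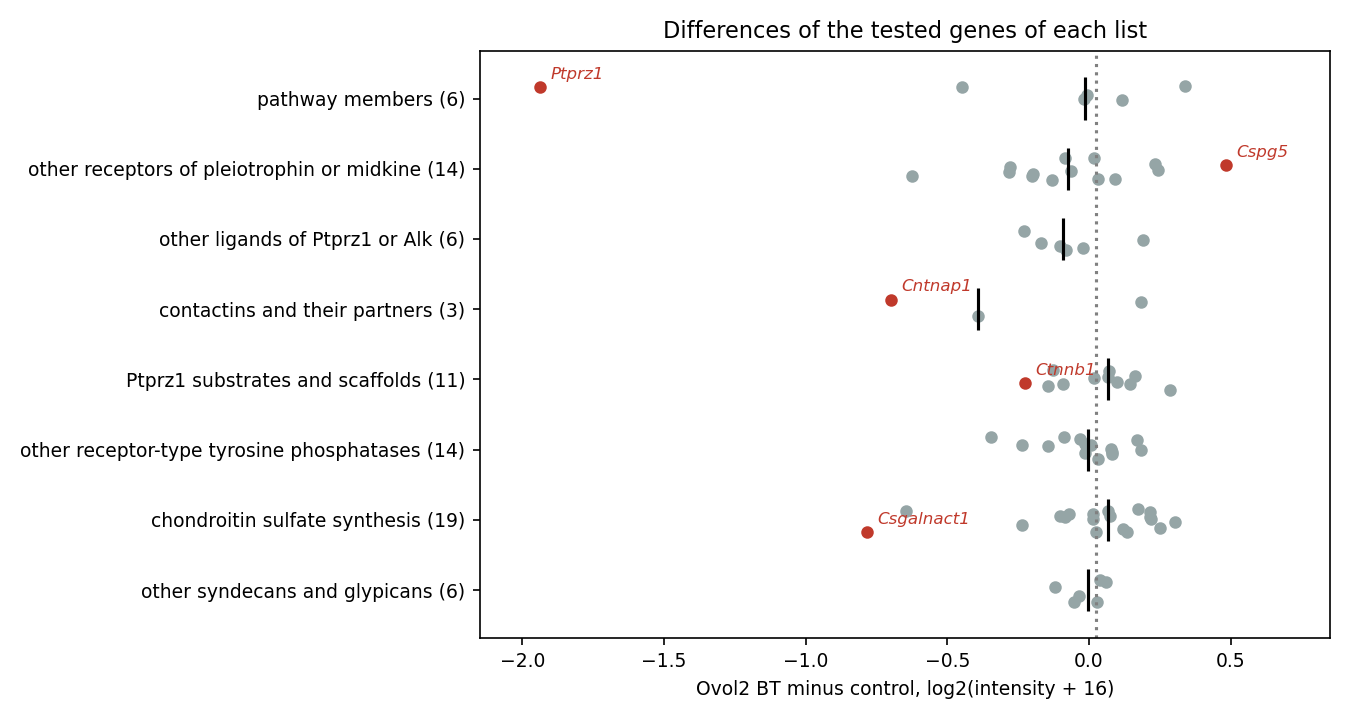
Difference of each tested gene of each list, Ovol2 BT minus control, on the log2(intensity + 16) scale, with the number of genes tested in brackets. Red points have an unadjusted p under 0.05 in limma, black bars are list medians and the dotted line is the median of all genes, 0.03. Ptprz1 at -1.94 is the lowest point, and every other gene lies between -0.78 and 0.48.

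In whole skin, fewer cells of a type and less RNA per cell cannot be told apart, so markers of the cells that could hold Ptprz1 are given beside its difference. Of 12 Schwann cell and glia markers 10 were read, with summed intensities of 7520 and 8052 in Ovol2 BT skin, against 7905 and 7732 in control skin. Sox10, which specifies glia and melanocytes, read 832 and 1133 in Ovol2 BT skin, against 1019 and 925 in control skin, and of the 8 markers tested 0 passed or had an unadjusted p under 0.05. The summed glial signal thus overlapped between the groups. The 7 melanocyte markers summed to 4775 and 4808 in Ovol2 BT skin, against 5365 and 6153 in control skin, and Tyr, the pigment enzyme, was the 1 of them with an unadjusted p under 0.05 (-0.82, SE 0.26, adjusted p = 0.907).

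Basal keratinocytes are the cells in which the transgene acts. Their 7 markers summed to 23187 and 25004 in Ovol2 BT skin, against 37292 and 38769 in control skin. The 3 keratins Krt5 (-0.87, adjusted p = 0.0600), Krt14 (-0.66, adjusted p = 0.434) and Krt15 made up this gap. None of them passed the threshold in limma, but all 3 had an unadjusted p under 0.05, against 4.22% of all genes. By p Krt5 ranked 5 and Krt15 ranked 9, ahead of Ptprz1 at 10. The other 4 markers, Trp63, Col17a1, Itgb4 and Dst, summed to 8051 and 8193 in Ovol2 BT skin, against 7676 and 9546 in control skin, with overlapping sums. Within them Itgb4 was higher on both Ovol2 BT arrays (0.45, SE 0.22) and Dst lower on both (-0.53, SE 0.22), each at a limma adjusted p of 0.907. The 7 periderm markers, of the outermost fetal layer, summed to 22625 and 22799 in Ovol2 BT skin, against 7707 and 6464 in control skin. All 7 were higher on both Ovol2 BT arrays, a pattern of 20.1% of all genes tested. Krt8 was the 1 that passed (2.34, SE 0.12, limma adjusted p = 0.0256), and Cldn6 differed most (2.63, adjusted p = 0.0952). Over the 60 markers of these and of the suprabasal, fibroblast, endothelial, muscle and erythroid lists, the lowest reading was 18.2. It was that of Cdh19 on Ovol2 BT replicate 2, a glial marker too dim to be tested. The Y-linked gene Eif2s3y read 10.4 on that array and 55.9 on control replicate 2, both labelled female. A reading above 0 therefore does not show that a transcript was present. The part of any of these cell types in the difference of Ptprz1 was not tested.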

How the data were processed

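Skin RNA was measured on 4 arrays (2 Ovol2 BT, 2 control). The authors deposited 1 linear intensity for each probe set, computed with Affymetrix Expression Console 1.1.1 and PLIER 2.0, per the submitters' processing notes; neither the genome build nor any normalisation between arrays is given in the sources used here. Of 35557 probe sets, 21789 had 1 gene symbol in the platform annotation, 1621 several and 12147 no listed gene; the symbols of 21698 probe sets were matched to RefSeq and 91 were kept as annotated. Values were taken to log2(intensity + 16). Genes with a mean under the 25th percentile were left out, which kept 14953 of 19938 genes and 6 of the 8 members. limma 3.58.1 in R 4.3.3 fitted Ovol2 BT minus control (lmFit, eBayes with an intensity trend, two-sided, 2 residual and 3.44 prior degrees of freedom), with Benjamini-Hochberg adjustment over all genes tested. Exact permutation of 2 against 2 arrays reaches p = 0.333 at best and was therefore not run. The code of the fit was run on simulated data. These had independent errors, with spreads shuffled over genes and no outlying array, so they do not bear on the calls made here. Precision is limited by the number of arrays.

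The members and lists were chosen with earlier results of these data known. Named were all members, Ovol2, of each list the 2 genes with the largest difference and those with an unadjusted p under 0.05, and the 5 nearest profiles; neighbours, Tnc, Fyn, the 3 genes below Ptprz1 and the marker genes were named after their values were seen. Of the 60 cell type markers read, those of the suprabasal, fibroblast and endothelial lists (median differences -0.08, 0.02 and 0.11) had 0 genes past the threshold. The erythroid list had 0 too, with a median of 0.56 over only 2 genes tested of 7 listed. Its 3 genes read summed to 3834 and 13193 in Ovol2 BT skin, against 3267 and 6612 in control skin. The high sum was that of Ovol2 BT replicate 2, the outlying array. Of the sequences, windows were matched by symbol.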

Additional observations from a re-analysis of the deposited data

How the results depend on the processing

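The difference of Ptprz1 ran from -2.06 to -1.69 under 14 other settings. It could not move from -1.94 with no filter, the filter at the 50th percentile, a variance without trend or the replicate block. Taking the mean of all probe sets of a gene could not move it either, since Ptprz1 had 1 probe set. Where the difference could move, it kept its sign. With all 4 arrays in the fit, the limma adjusted p lay between 0.0721 (median centring) and 0.216 (cyclic loess). The difference ran from -2.06 to -1.82 with each array left out in turn. The filter at the 50th percentile removed Ptprz1 from the test. The number of genes called was 4, and it was 0 with cyclic loess (684 genes at an unadjusted p under 0.05), 0 with a variance without trend (599) and between 4 and 2455 with an array left out. Members called were 0, and between 0 and 2 with an array left out. With the replicate number as a block 9 genes and 0 members were called, and Ptprz1 had an adjusted p of 0.104. The labels do not say that a number marks a shared litter or batch. Deviations of same-numbered arrays correlated at -0.172 over genes, and a crossed pairing, added after the data were seen, called 5 genes and 0 members. Signs near 0 turned. Mdk was 0.044 with median centring and -0.19 to 0.17 with an array left out. Ptprg was 0.0184 with quantile normalisation, 0.0332 with median centring and -0.21 to 0.17 with an array left out, and Ptn -0.18 to 0.42. The causes were not tested.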

Other observations

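For the other members, the 2 protein-coding genes with a probe set on either side were also looked up. Those of Ncl differed the other way from Ncl itself. Armc9 (0.19), B3gnt7 (0.22), Nmur1 (0.14) and Tex44 (0.21) were each higher on both Ovol2 BT arrays than on both control arrays, a pattern of 20.1% of all genes tested, and none passed the threshold in limma. Creb3l1, a membrane-bound transcription factor gene beside Mdk, read 3718 and 4101 in Ovol2 BT skin, against 3012 and 3051 in control skin (0.36, SE 0.13, limma adjusted p = 0.907). They were chosen after their values were seen.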
